A study of Mus musculus with 32 samples.

Results

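The intestinal mesenchyme comprised 74 of the 1916 single cells in the files. They were the cells that the study's own annotation calls mesenchymal and whose names give the intestine as organ, out of 217 cells taken from the intestine. The annotation rests on clustering of the same expression values, so that differences between mesenchymal and epithelial cells are built into it and are given here as levels without a test. The embryos were of strain C57BL/6J, with no allele or treatment named in the labels, and were taken at E9.5 (3 embryos), E10.5 (2 embryos) and E11.5 (2 embryos). The intestine of the E9.5 embryos gave 6, 11 and 9 mesenchymal cells (embryos 1, 2 and 3), that of the E10.5 embryos 14 and 19, and that of the E11.5 embryos 7 and 8. They were compared with 76 mesenchymal cells of the liver, all from E9.5, 125 of the lung and 77 of the skin. E9.5 embryo 1 had no mesenchymal cells of lung or skin. The intestinal cells of E9.5 embryo 3 were read from a library that also held skin and somite cells, and the libraries of E10.5 and E11.5 each held both embryos of the day. E9.5 embryo 2 was female and the other embryos male by the labels, so that sex cannot be told apart from that embryo.

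The mesenchyme of the gut comes from splanchnic mesoderm, which wraps the endodermal tube and gives rise to its fibroblasts, smooth muscle and outer serosa, the mesothelium. It exchanges signals with the epithelium, receiving Hedgehog and returning Wnt, BMP and retinoic acid, and it is the tissue through which the enteric neural crest migrates. Position along the tube is encoded in mesenchymal cells by *Hox* genes, whose paralog groups are switched on in order from head to tail.

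Levels are unique molecular identifiers (UMIs, each marking 1 captured molecule) scaled to a common total per cell. They are called TPM in the files although no gene length enters, so that levels are compared between cells and not between genes. They are given as log2(TPM/10 + 1), averaged over the cells of an embryo, and the embryo is the replicate. A cell expressed a gene when it reached 1 on this scale. A gene is described as higher, lower, rising or falling only when it was called, with an adjusted p from limma under 0.05 and a size of 1 or more on the log2 scale, or of 0.5 or more per day for a slope. In this sense 1.5% of the 15616 genes tested differed between intestinal mesenchyme and the mean of liver, lung and skin mesenchyme (0.698% higher and 0.807% lower), 1.29% differed from lung (0.66% higher and 0.634% lower) and 2.9% from skin (0.986% higher and 1.91% lower). Of 13171 genes, 0.63% differed from liver at E9.5 (0.304% higher and 0.326% lower). The comparisons share the intestinal embryos, and their values are set side by side without a test of overlap.

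The cells held 33344 to 2071116 UMIs, with a median of 252775, and 11 of them held fewer than 100000. The median depth of an embryo ran from 120793 UMIs (E10.5 embryo 1) to 1593937 (E9.5 embryo 2), and no cell name was shared between libraries. Markers of neighbouring cell types were sparse. No endothelial gene of 11, no cardiac gene of 9 and no enteric neural crest gene of 12 reached an average of 1, whereas 3 of 11 blood genes did, all of them embryonic globins, whose summed list stood at 23.3 to 118.64 TPM in 6 embryos and at 1182 TPM in E10.5 embryo 2. Of 19 epithelial genes, 5 reached 1 (*Epcam*, *Cldn6*, *Krt8*, *Krt18* and *Spint2*), and they are described further on. Marker genes of the cell type were expressed in most of the cells. The label rests on the same expression values, and the authors name *Col3a1* among the markers of their mesoderm-derived group. The shares of expressing cells are therefore a description and no test of the label. *Col3a1*, a fibrillar collagen of mesenchyme, was expressed in 74 of 74 cells, the eye and gut regulator *Mab21l2* in 72, the acute-phase apolipoprotein *Saa1* in 65 and the mesodermal factor *Twist2* in 59.

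Transcription factors set the intestinal cells apart from mesenchyme of the other organs. Of 16 gut mesenchyme factors tested, 10 were higher than the mean of the other organs and 2 were lower, with a median log2 difference of 1.61 against -0.01 over all genes. This list was chosen with earlier results of these data known, so that its share is a description and no independent support. *Nkx2-3*, a homeobox factor needed for gut and spleen mesenchyme, stood at 5.08, 3.30 and 3.03 in the E9.5 embryos, at 3.24 and 3.52 at E10.5 and at 3.01 and 4.29 at E11.5. It was expressed in 68 of 74 intestinal cells. No cell of liver, lung or skin mesenchyme expressed it, which allows shares of up to 3.95%, 2.4% and 3.9%, and neither did any of 249 blood cells, taken as background. No embryo overlapped with another organ, and all 7 were above the mean of the other organs (difference 3.64 ± 0.15, SE, adjusted p = 5e-24). *Hand1*, a basic helix-loop-helix factor of lateral mesoderm, read 4.64, 5.35, 3.12, 4.80, 4.38, 2.48 and 3.22 in the same order of embryos, while liver averaged 1.10, lung 0.01 and skin 0.02. Again no embryo overlapped (3.63 ± 0.21, adjusted p = 2.3e-17, 7 of 7 embryos).

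*Mab21l2* was at 2.70, 4.38 and 4.75 in the E9.5 embryos and at 4.95 to 5.92 in the later 4. It was nearly absent from lung (0.00 to 0.17), but liver reached 3.60 in 1 embryo and skin 3.97 in another, so that it parted the intestine from lung in every embryo and overlapped with liver and skin. Against lung the difference was 4.76 ± 0.43 (adjusted p = 3.2e-11). The forkhead factors, both targets of Hedgehog signals in gut mesoderm, had different neighbours. *Foxf1* was no higher than 4.34 in any intestinal embryo, lay at a like level in the lung (3.25 to 4.20; difference 0.16 ± 0.21, adjusted p = 0.99) and was nearly absent from skin (0.01 on average). *Foxf2*, at 1.49 to 3.88, was higher than in lung by 1.55 ± 0.19 (adjusted p = 1.3e-07) and than in skin by 2.82 ± 0.19 (adjusted p = 1.5e-15). The lowest intestinal embryo for *Foxf2* lay within the lung range, and the difference from lung was not called by edgeR (1.59, adjusted p = 0.322) or DESeq2 (1.60, adjusted p = 0.471).

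**Figure D1:**
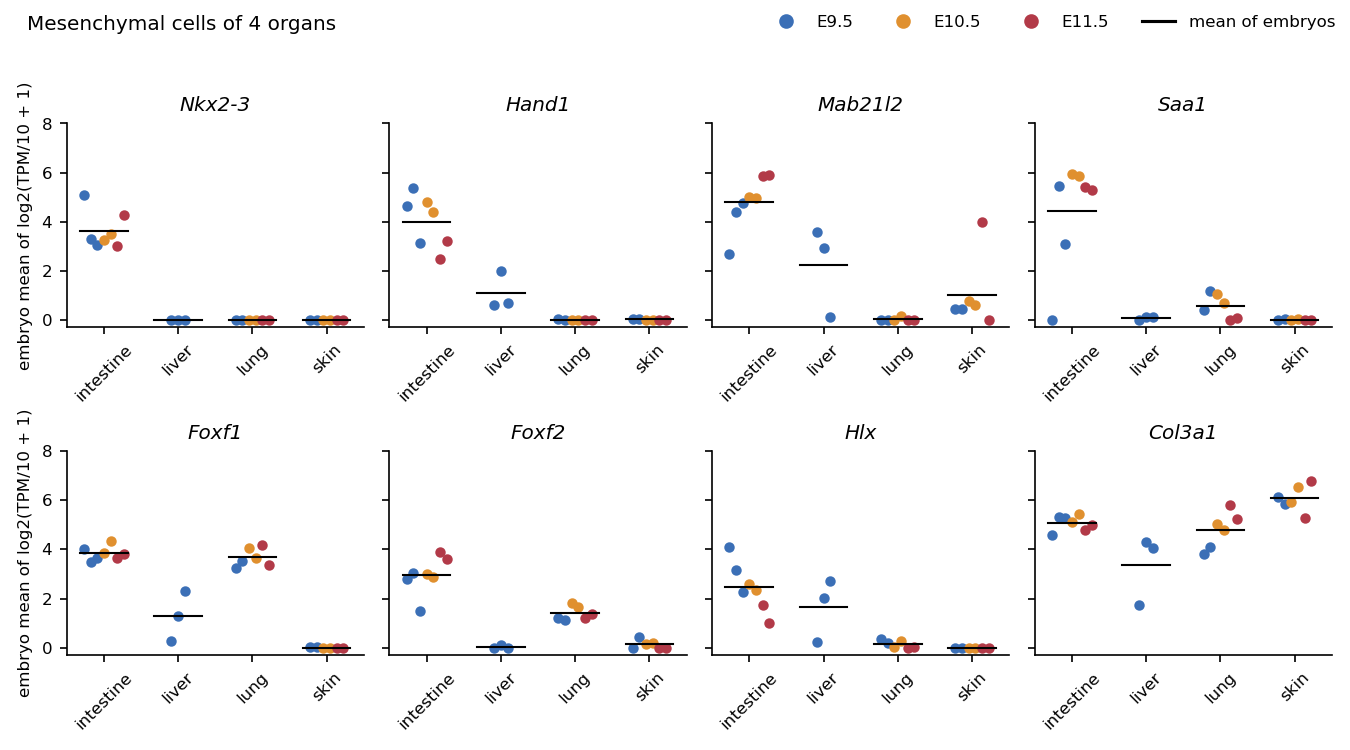
Mean level of 8 genes, as log2(TPM/10 + 1), in each embryo (points, coloured by stage) in the mesenchyme of the 4 organs, with the mean over embryos as a line. *Nkx2-3* and *Hand1* are above every other organ in all 7 intestinal embryos, *Foxf1* is shared with lung, *Col3a1* is shared by all organs, and E9.5 embryo 1 is at 0.00 for *Saa1*.

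The homeobox factor *Hlx*, which acts in visceral mesenchyme, ranged from 1.01 to 4.11, above the highest lung (0.37) and skin (0.00) embryos and overlapping with liver. It was higher than the mean of the other organs by 1.86 ± 0.22 (adjusted p = 4e-08, 7 of 7 embryos). *Sall4*, a zinc finger factor of immature cells, was at 2.04 to 3.80 and did not overlap with any other organ, the highest of which was a lung embryo at 1.26. *Tcf21*, a factor of visceral fibroblast precursors, was shared with liver (2.49 to 3.71) and was nearly absent from skin (0.03). The genes that mark the other organs were low. *Tbx5*, which patterns lung mesoderm, was listed at 0.00 in all 7 intestinal embryos and at 3.21 to 4.21 in the lung, and *Osr1*, needed for lung specification, was at 0.00 to 0.54 against 3.95 to 6.20. The skin mesenchyme factors *Prrx1* and *Msx2* were at 0.00 to 0.22 and 0.00 to 0.25, against 2.99 to 5.54 and 3.54 to 6.93 in skin, and 6 of 12 skin factors were lower than in skin. *Twist2* and *Col3a1* were poor guides to the organ. *Col3a1* (4.59 to 5.46) did not differ from the mean of the other organs by the test (0.33 ± 0.29, adjusted p = 0.7). *Twist2* did (1.06 ± 0.25, adjusted p = 0.0053, 7 of 7 embryos), but it overlapped with lung and skin, and its call was lost without any of the 3 E9.5 embryos (0.75 to 0.99, adjusted p 0.043 to 0.097), by edgeR (adjusted p = 0.069) and by DESeq2 (adjusted p = 0.085).

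The pair *Saa1* and *Saa2* encodes serum amyloid A proteins, apolipoproteins best known as liver products of the acute phase. *Saa1* read 0.00, 5.45 and 3.08 in E9.5 embryos 1, 2 and 3, 5.95 and 5.86 at E10.5, and 5.40 and 5.30 at E11.5. It was in 48 of 48 cells of the later days and in 17 of 26 at E9.5, where none of the 6 cells of embryo 1 expressed it (which allows a share of up to 50%). *Saa2* read 0.87, 5.38, 3.65, 5.54, 5.19, 4.83 and 5.03, so that E9.5 embryo 1 was the lowest for both. Liver mesenchyme was at most at 0.14 for *Saa1* and 0.29 for *Saa2*, skin at 0.05 and 0.14, and lung at 1.17 and 1.25. The differences from the mean of these organs were 4.21 ± 0.40 for *Saa1* (adjusted p = 1.3e-10, 6 of 7 embryos) and 4.20 ± 0.31 for *Saa2* (adjusted p = 2.8e-14, 7 of 7 embryos). With E9.5 embryos alone the former was 2.54 (adjusted p = 0.0593). Intestinal epithelial cells averaged 0.62 for *Saa1* and 0.46 for *Saa2*, and 0.402% of 249 blood cells expressed *Saa1*. These are levels without a test.

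Both genes were mostly detected in the same cells. *Saa1* and *Saa2* were detected jointly in 64 of the 74 cells and were both missing in 7. The Pearson r was 0.71 over the 74 cells, which share libraries and depth. It pools embryos that differ in the level of both genes, and no value within an embryo was computed. They are neighbours on chromosome 7 in GRCm38, *Saa1* at chr7:46740497-46742980 on the minus strand and *Saa2* at chr7:46751790-46754313 on the plus strand, with their starts 8810 bases apart and facing away from each other in the GENCODE annotation. The transcripts resemble each other, but none of the 510 stretches of 100 bases of the *Saa1* transcript (609 bases) occurs in that of *Saa2* (652 bases), and the authors kept uniquely mapped reads. Shorter reads could still be lost or split between them, and this was not tested. The RefSeq start of *Saa2* lies downstream of the GENCODE one, so that the end of its window falls within the gene as GENCODE gives it. The 250 bases before each RefSeq start (GRCm38.p6) are printed because the pair shared its pattern. They are identical at 238 positions (95.2%), and capitals mark the 12 bases of each that have no identical partner in a global alignment.
*Saa1* promoter, chr7:46742981-46743230, minus strand: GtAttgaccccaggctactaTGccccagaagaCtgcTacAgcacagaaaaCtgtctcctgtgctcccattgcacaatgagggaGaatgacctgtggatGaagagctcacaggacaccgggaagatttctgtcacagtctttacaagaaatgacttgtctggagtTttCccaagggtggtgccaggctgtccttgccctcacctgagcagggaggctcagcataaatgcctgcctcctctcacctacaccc
*Saa2* promoter, chr7:46751583-46751832, plus strand: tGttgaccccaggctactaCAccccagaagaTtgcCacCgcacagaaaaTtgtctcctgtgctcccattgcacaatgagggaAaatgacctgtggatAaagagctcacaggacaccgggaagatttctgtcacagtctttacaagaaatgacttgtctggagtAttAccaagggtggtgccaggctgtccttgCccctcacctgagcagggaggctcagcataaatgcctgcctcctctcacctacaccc

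*Hox* genes of the middle and tail paralog groups were expressed in the intestine and hardly in the other organs. Of 39 *Hox* genes in the files 33 were tested, 9 of them were higher than the mean of liver, lung and skin, and none was lower. By paralog group limma called 0 of 15 in groups 1 to 5 (6 at an unadjusted p under 0.05, 7 called by edgeR and 5 by DESeq2), 4 of 8 in groups 6 to 8 and 5 of 10 in groups 9 to 13, with median log2 differences of 0.20, 1.12 and 1.08. The anterior genes were shared. *Hoxb2* averaged 2.41 in the intestine, against 2.37 for liver and 2.17 for lung, and *Hoxa5* 1.59 in the intestine and 2.13 in the lung, while skin stood at 0.13 and 0.01 for these genes.

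The 4 genes called in groups 6 to 8 were expressed at every day. *Hoxc8* was at 0.95, 2.83, 0.79, 1.11, 1.75, 1.79 and 1.24, with no other organ above 0.02 in any embryo (1.49 ± 0.14, adjusted p = 9.3e-11, 7 of 7 embryos). *Hoxa7* (0.53 to 3.04) and *Hoxb7* (0.73 to 2.42) likewise had no overlap with any other organ, and *Hoxb6* (0.40 to 2.33) overlapped with lung alone. With E9.5 embryos alone *Hoxb6* was not called (0.81, adjusted p = 0.0742). *Hoxc9* was at 2.84, 4.88, 2.23, 0.39, 1.25, 1.94 and 1.32, expressed in 35 of 74 intestinal cells and in no mesenchymal cell of liver, lung or skin (2.11 ± 0.28, adjusted p = 2.9e-07, 7 of 7 embryos).

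Among the intestinal embryos sampled, groups 10 and 11 were expressed at E9.5 alone. *Hoxc10* read 4.03, 1.10 and 3.98 in E9.5 embryos 1, 2 and 3 and 0.00 in each of the later 4 embryos. *Hoxa10* read 3.97, 0.10 and 3.38 and *Hoxd10* 3.64, 0.64 and 3.36, and both were at 0.00 later. The gene model of *Hoxc5* (102967443 to 103017429, chromosome 15, GRCm38) overlaps that of *Hoxc10* (102966796 to 102971893) on the same strand. It also contains that of *Hoxc9* (102976439 to 102985099). The UMIs of *Hoxc5*, *Hoxc9* and *Hoxc10* may therefore be shared out wrongly, and all of these genes are uncertain in that respect. Thus embryos 1 and 3 were high and embryo 2 was low, and the days did not overlap. A gene of group 10 or 11 was expressed in 6 of 6, 6 of 11 and 9 of 9 cells of these embryos and in 0 of 48 cells of the later days (which allows a share of up to 6.25%). Of the 10 genes of groups 9 to 11, a cell of embryo 1 expressed a median of 7 (5 to 8), a cell of embryo 2 a median of 3 (1 to 5) and a cell of embryo 3 a median of 5 (5 to 7), against a median of 0 and at most 1 in each later embryo. The stretch of gut dissected at each day was not recorded in the labels, so that day and position along the gut cannot be told apart for these genes. The same limit holds for every slope on embryonic day, and every difference in slope, given below. The higher calls of *Hoxa9*, *Hoxc10*, *Hoxd9* and *Hoxd10* against the other organs rest on E9.5. Each was lost without embryo 1 and without embryo 3, and those of *Hoxa9* and *Hoxd10* also without embryo 2. Their differences without an embryo that ended the call were 0.76 to 0.99 for *Hoxa9*, 0.84 to 0.85 for *Hoxc10*, 0.85 to 0.88 for *Hoxd9* and 0.67 to 1.17 for *Hoxd10*.

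**Figure D2:**
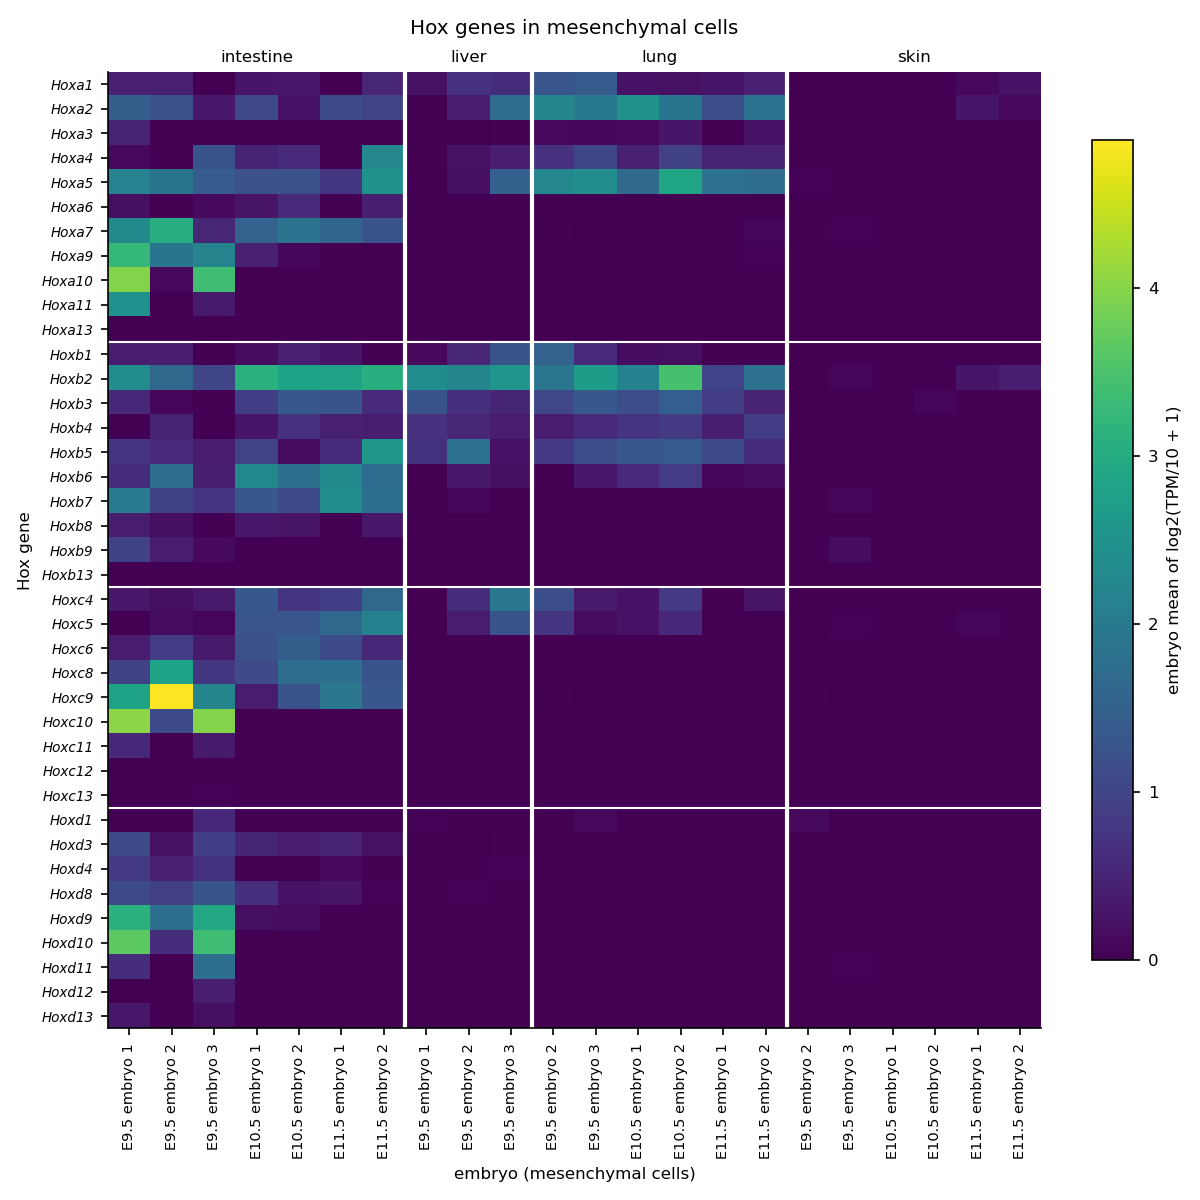
Mean level of the 39 *Hox* genes, as log2(TPM/10 + 1) by colour, in each embryo (columns) in the mesenchyme of the 4 organs, with white lines between organs and clusters. Groups 1 to 5 are shared by intestine, liver and lung, *Hoxa7*, *Hoxb7*, *Hoxc8* and *Hoxc9* are in the intestine of every day, groups 10 and 11 are in the intestine at E9.5 and highest in embryos 1 and 3, and skin is at or near 0.

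Signalling genes followed their roles unevenly. Among 31 Wnt genes, 2 were higher and 5 lower than the mean of the other organs, with a median log2 difference of -0.16. The ligand *Wnt5a*, which drives gut elongation, was at 1.13 to 4.27 and higher by 1.71 ± 0.31 (adjusted p = 0.00015, 7 of 7 embryos), against 0.36 in liver, 1.14 in lung and 1.77 in skin. It was not called by DESeq2 (1.97, adjusted p = 0.0553). The nuclear partner *Lef1*, at once effector and target of canonical Wnt signals, read 2.42, 0.61, 0.55, 0.00, 0.03, 0.00 and 0.00, while lung (2.97 to 4.45) and skin (2.47 to 4.30) lay above all of these (lower than the mean of the other organs by 2.15 on the log2 scale, SE 0.28, adjusted p = 2.2e-07, below it in 7 of 7 embryos). The feedback inhibitor *Nkd1* (0.49 to 2.05) and the secreted antagonist *Sfrp2* (0.45 to 1.11) were lower too, the former by 1.83 and the latter by 1.59 on the log2 scale. *Axin2*, a universal target, did not reach 0.41 in any intestinal embryo and was lower than in skin by 1.99 ± 0.21 on the log2 scale (adjusted p = 1.2e-09). With liver, *Lef1*, *Nkd1* and *Sfrp2* overlapped. With E9.5 embryos alone, *Wnt5a* (1.68, adjusted p = 0.125), *Lef1* (-1.45, adjusted p = 0.105), *Nkd1* (-0.97, adjusted p = 0.453) and *Sfrp2* (-0.86, adjusted p = 0.266) were not called against the mean of the other organs.

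Of 22 BMP genes, 2 were lower than the mean of the other organs. These were the decoy receptor *Bambi* (0.90 to 2.41; lower by 2.12 ± 0.38, adjusted p = 0.00016) and the target *Id3* (3.33 to 6.01; lower by 2.12 ± 0.46, adjusted p = 0.0022), both below the mean of the other organs in 7 of 7 embryos. *Id3* was not called by edgeR (-1.52, adjusted p = 0.0727) or DESeq2 (-1.49, adjusted p = 0.0656), and with E9.5 embryos alone neither *Id3* (-1.42, adjusted p = 0.225) nor *Bambi* (-1.50, adjusted p = 0.2) was. The ligand *Bmp4*, at 0.98 to 3.34, overlapped with every organ (0.48 ± 0.30, adjusted p = 0.5). Among 12 Hedgehog genes, 1 was higher and 1 lower. The antagonist and target *Hhip* read 0.31, 3.07, 1.11, 2.80, 3.22, 3.69 and 2.88, mostly as in the lung (2.37 to 4.95), while liver was at most at 0.06 and skin at 0.52, above the lowest intestinal embryo. Its difference from the mean of the other organs (1.24 ± 0.33, adjusted p = 0.019, 5 of 7 embryos) was not called without E9.5 embryo 2, E10.5 embryo 1 or E10.5 embryo 2 (1.05 to 1.17, adjusted p 0.096 to 0.14), and with E9.5 embryos alone it was 0.43 (adjusted p = 0.774). The coreceptor *Gas1* was lower by 1.55 ± 0.20 (adjusted p = 1.6e-07, 7 of 7 embryos), at 0.19 to 0.83.

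Of 10 genes that guide enteric neurons, 2 were higher. *Edn3*, the endothelin that keeps crest progenitors dividing, was at 2.72, 3.92, 3.32, 1.66, 2.46, 1.91 and 2.05. It did not overlap with liver or lung and was shared with skin, in which it supports pigment cells (1.47 ± 0.32, adjusted p = 0.002, 7 of 7 embryos), and with HiSeq 4000 embryos alone the call was lost (1.31, adjusted p = 0.055). *Gdnf*, the ligand of Ret that draws crest cells along the gut, was at 0.23, 0.52, 0.76, 2.33, 1.22, 1.50 and 1.42, expressed in 32 of 74 cells. It was higher by 1.03 ± 0.13 (adjusted p = 2e-07, 7 of 7 embryos), a size that fell under 1 without E10.5 embryo 1 or E11.5 embryo 1 (0.82 to 0.95) and was 0.44 with E9.5 embryos alone (adjusted p = 0.00296).

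Of 14 retinoic acid genes tested, 3 were higher and 2 lower. The enzyme *Aldh1a2*, which makes retinoic acid, was higher (2.96 ± 0.54, adjusted p = 0.00017, 5 of 7 embryos), and this came from E10.5 and E11.5, since with E9.5 embryos alone the difference was -0.43 (adjusted p = 0.707). Against lung it was 2.52 (adjusted p = 0.0165), a call lost without any of the 4 later embryos (1.92 to 2.16, adjusted p 0.16 to 0.20) and by DESeq2 (adjusted p = 0.164). The binding protein *Crabp2* was at 0.73 to 3.23 and lower by 2.52 ± 0.48 (adjusted p = 0.00035, 7 of 7 embryos), and at E9.5 alone by 2.24 on the log2 scale, which was not called (adjusted p = 0.0946). *Crabp1*, at 0.00 to 2.80, was lower than in skin (5.38 to 7.11) by 5.11 ± 0.43 on the log2 scale (adjusted p = 7.7e-13) and close to liver and lung.

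Collagen I genes of the intestinal cells were lower than in skin. *Col1a2* read 1.23, 3.75, 2.48, 1.23, 2.13, 2.33 and 1.53, below the lowest skin embryo (4.60), and was lower than the mean of the other organs by 2.55 ± 0.43 (adjusted p = 6.1e-05, 7 of 7 embryos). *Col1a1* was lower than in skin by 2.85 ± 0.51 (adjusted p = 7.9e-05) and not than in lung (-0.62 ± 0.51, adjusted p = 0.86). *Pcolce*, which speeds the processing of procollagen, was at 0.57 to 2.84 and lower by 2.06 ± 0.29 (adjusted p = 1.9e-06, 7 of 7 embryos). With E9.5 embryos alone, the day of the liver cells, *Col1a2* (-1.09, adjusted p = 0.389) and *Pcolce* (-0.85, adjusted p = 0.251) were not called. Of 41 collagen genes tested, 1 was higher and 2 were lower. Among 31 other matrix genes, 3 were higher and 3 lower. The gelatinase *Mmp2* was at 3.96 to 4.79 and above every embryo of every other organ (1.82 ± 0.19, adjusted p = 1.1e-09, 7 of 7 embryos), and the basement membrane protein *Smoc1* was at 0.39 to 2.30 (1.35 ± 0.24, adjusted p = 0.00013, 7 of 7 embryos; not called with E9.5 embryos alone, at 0.94 and adjusted p = 0.342).

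**Figure D3:**
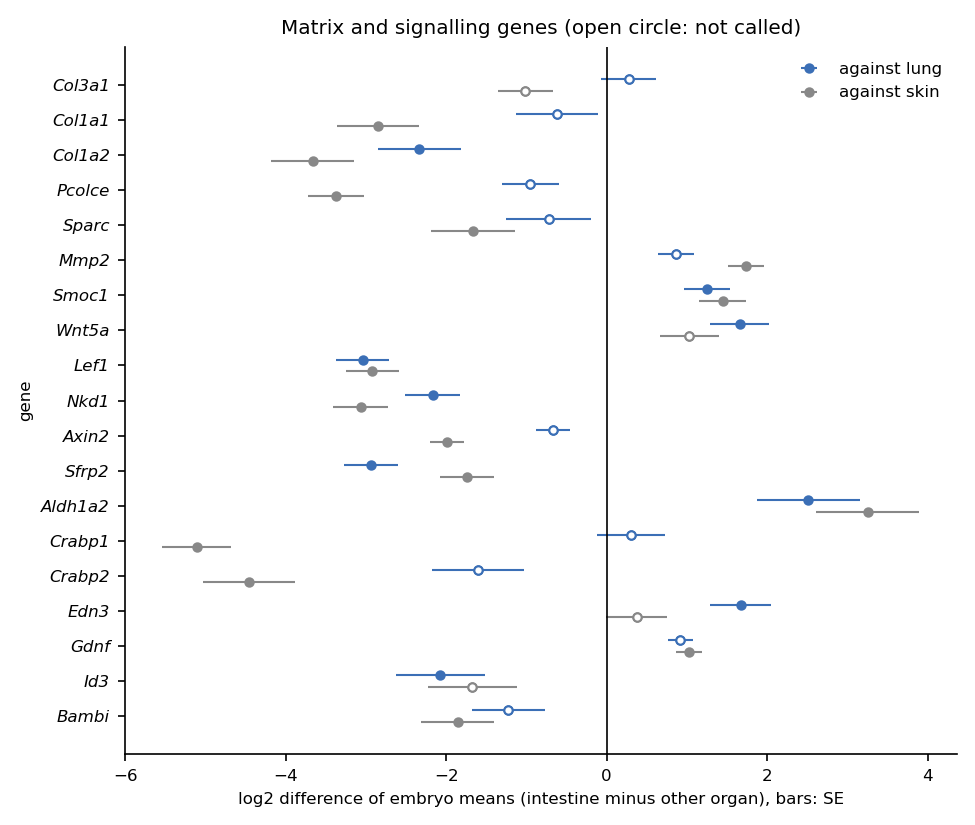
Log2 difference of embryo means, intestinal minus lung mesenchyme (blue) and intestinal minus skin mesenchyme (grey), for 19 matrix and signalling genes, with SE as bars and open circles where a gene was not called. *Col1a2*, *Lef1*, *Nkd1* and *Sfrp2* are below 0 against both organs, *Smoc1* and *Aldh1a2* are above 0 against both, *Mmp2* is called against skin alone, and *Crabp1* is below 0 against skin alone.

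The genes described next were among those with the largest falls against the mean of the other organs, and some were nearly absent. *Anxa2*, a membrane-binding annexin, was at 0.04 to 0.46 and expressed in 1 of 74 cells, against 3.60 to 4.90 in liver, 0.78 to 4.38 in lung and 4.07 to 6.25 in skin (lower by 3.84 ± 0.45 on the log2 scale, adjusted p = 2.3e-08, 7 of 7 embryos). *Sox9*, a chondrogenic factor, was at 0.03 to 0.71 and the lowest embryo of any other organ at 1.05. *Alcam*, an adhesion molecule, was as low in lung and high in liver and skin. The growth factors *Tgfb2* (0.00 to 0.92) and *Igf1* (0.00 to 0.67) were lower by 2.86 ± 0.45 and 2.26 ± 0.33 on the log2 scale, and the lipoprotein *Apoe* (0.47 to 1.60) and the lectin *Lgals1* (2.32 to 4.80) by 3.05 ± 0.37 and 2.79 ± 0.38. All of these were below the mean of the other organs in 7 of 7 embryos. With E9.5 embryos alone *Sox9* (-1.34, adjusted p = 0.264) and *Tgfb2* (-2.10, adjusted p = 0.0557) were not called. In the other direction, *Hsd11b2*, which inactivates glucocorticoids, was at 4.23 to 5.43 (2.66 ± 0.32, adjusted p = 5.6e-08, 7 of 7 embryos), and the interferon-induced membrane protein *Ifitm1* at 3.86 to 5.47 (2.36 ± 0.42, adjusted p = 0.00014, 7 of 7 embryos). *Ifitm1* was not called by DESeq2 (1.77, adjusted p = 0.06) or with E9.5 embryos alone (1.97, adjusted p = 0.119).

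At E9.5 the liver offered mesenchyme of the same day. Intestine and liver differed in 40 genes that were higher and 43 that were lower in the intestine. Of the gut factors 5 of 16 were higher and 3 lower. *Nkx2-3* was higher by 3.80 ± 0.45 (adjusted p = 0.0024), *Hand1* by 3.28 ± 0.53 (adjusted p = 0.014), *Sall4* by 3.10 ± 0.34 (adjusted p = 0.0017), *Edn3* by 3.11 ± 0.38 (adjusted p = 0.0028) and *Twist2* by 2.87 ± 0.38 (adjusted p = 0.0051). The liver was higher in the factors of septum transversum and heart. *Gata4* was at 0.00, 0.28 and 0.00 in the intestine and at 3.26 to 4.76 in the liver (-3.85 ± 0.38, adjusted p = 0.00098), and *Gata6* at 0.76, 0.48 and 0.00 against 2.52 to 3.68 (-2.70 ± 0.38, adjusted p = 0.0057). *Hand2* (-2.33 ± 0.42, adjusted p = 0.028) ran against its relative *Hand1*, and the imprinted regulator *Plagl1* was lower by 3.40 ± 0.40 on the log2 scale (adjusted p = 0.0024).

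The atrial light chain *Myl7* was lower in the intestine by 5.14 ± 0.71 on the log2 scale (adjusted p = 0.0057). The whole cardiac list summed to 923 to 8816 TPM in liver mesenchyme and to 0.121 to 91.9 TPM in the intestinal embryos, with 5 of 9 genes at an average of 1 or more in the liver, and the part of cardiac cells or RNA in the liver values was not tested. The comparison rested on 3 embryos. Without E9.5 embryo 1, 60 genes were called by limma. Without embryo 2 or embryo 3, none was (856 and 1387 genes at an unadjusted p under 0.05). *Hand1*, *Hoxc10* and *Wt1* lost the call whichever of the 3 was left out. Over the 3 embryos left out in turn, the log2 differences were 3.17 to 4.19 for *Nkx2-3*, -4.28 to -3.40 for *Gata4*, 2.54 to 4.00 for *Hoxc10* (3.03 with all 3) and -2.74 to -1.79 for *Wt1* (-2.19 with all 3). On summed UMIs edgeR did not call *Hand2* (adjusted p = 0.473), *Gata6* (adjusted p = 0.073), *Wt1* (adjusted p = 0.211) or *Edn3* (adjusted p = 0.077), and DESeq2 called neither *Hand2* (adjusted p = 0.63) nor *Edn3* (adjusted p = 0.051). With the embryo as a block, 183 genes were called (87 higher and 96 lower).

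Between E9.5 and E11.5 the slope on embryonic day was called for 0.64% of 13584 genes in the intestinal mesenchyme, 35 rising and 52 falling. Both E10.5 embryos shared 1 library, as did both E11.5 embryos, so that day cannot be told apart from library or from the stretch of gut. Lung and skin libraries were shared in the same way at these days. The p-values of the slopes take embryos of a shared library as independent. *Aldh1a2* rose. It was at 0.00, 0.04 and 0.38 at E9.5, at 5.40 and 5.14 at E10.5 and at 5.55 and 6.28 at E11.5, and was expressed in 1 of 26 cells at E9.5 and in 47 of 48 later, against 2.01% of 249 blood cells. The days E9.5 and later did not overlap, and the slope was 3.02 ± 0.34 per day (adjusted p = 7.8e-05). *Pdgfra*, the receptor for platelet-derived growth factor on fibroblast precursors, was at 2.79, 1.21 and 1.79, then at 2.88 and 3.28, then at 4.28 and 4.55 (1.24 ± 0.18 per day, adjusted p = 0.00069), so that each day lay above the one before. The actin-binding *Synpo2* of smooth muscle was at 0.00, 0.09 and 1.36, then at 2.17 and 1.92, then at 3.31 and 3.36 (1.43 ± 0.21 per day, adjusted p = 0.00056). The whole list of 16 smooth muscle genes did not follow it, by summed levels without a test. These were 2060, 2714 and 1331 TPM at E9.5, 1148 and 1035 TPM at E10.5, and 2175 and 1485 TPM at E11.5. The secreted *Angptl1* (1.58 ± 0.20 per day, adjusted p = 0.0002) and *Hoxc5* (0.93 ± 0.11 per day, adjusted p = 7.8e-05) rose too. *Tcf21* rose and *Hlx* fell by the test (1.20 ± 0.29 and -0.89 ± 0.19 per day), but these calls were lost without any of 6 embryos for *Tcf21*, all but E9.5 embryo 3 (0.89 to 1.27 per day), and without any of 5 for *Hlx*, all but E9.5 embryo 3 and E10.5 embryo 1 (-1.01 to -0.67 per day). On summed UMIs 10 of the 23 slopes named in the text lost their call with edgeR and 8 with DESeq2. Among these 23, *Fos*, *Col1a1*, *Col1a2* and *Sparc* had no limma call to lose. Of the rising genes edgeR did not call *Aldh1a2* (4.86 per day, adjusted p = 0.141), *Synpo2* (adjusted p = 0.505), *Hoxc5* (adjusted p = 0.286) or *Angptl1* (adjusted p = 0.272), and DESeq2 called neither *Synpo2* (adjusted p = 0.617) nor *Angptl1* (adjusted p = 0.188).

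The genes that fell were of several kinds. *Igfbp5*, a binding protein of insulin-like growth factors, was at 4.44, 5.16 and 4.45, then at 1.90 and 2.30, then at 0.09 and 1.35 (-2.02 ± 0.28 per day, adjusted p = 0.00034). The simple epithelial keratins *Krt8* (5.99, 5.47 and 4.06, then 2.09 and 2.50, then 2.09 and 1.20) and *Krt18* fell by 1.83 ± 0.30 (adjusted p = 0.0017) and 1.71 ± 0.25 per day (adjusted p = 0.00056), and the desmosomal plaque protein *Dsp* by 1.62 ± 0.23 (adjusted p = 0.00053). E9.5 and the later days did not overlap for the keratins. *Lin28a*, a timing factor that blocks let-7 processing, was at 1.80, 1.44 and 1.08 at E9.5 and at most at 0.17 afterwards (-0.72 ± 0.13 per day, adjusted p = 0.0057), and the basement membrane collagen *Col18a1* fell by 1.27 ± 0.23 per day (adjusted p = 0.005). By edgeR *Igfbp5* (adjusted p = 0.068), *Dsp* (adjusted p = 0.163), *Lin28a* (adjusted p = 0.164) and *Hlx* (adjusted p = 0.404) were not called. DESeq2 did not call *Hlx* either (adjusted p = 0.189).

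Of 9 genes tested of *Hox* groups 9 to 13, 5 fell, at a median slope of -1.28 per day. *Hoxa9* was at 3.25, 1.89 and 2.19, then at 0.45 and 0.07, then at 0.00 and 0.00 (-1.28 ± 0.17, adjusted p = 0.0002), *Hoxd9* fell by 1.38 ± 0.18 (adjusted p = 0.0002) and *Hoxc10* by 1.61 ± 0.30 (adjusted p = 0.0057). *Hoxd10* (-1.35 ± 0.28, adjusted p = 0.013) was not called without E9.5 embryo 1 or embryo 3 (adjusted p = 0.061 and 0.062), and *Hoxa10* (-1.32 ± 0.32, adjusted p = 0.046) without any embryo but E9.5 embryo 2 (-1.49 to -0.87). DESeq2 did not call *Hoxa10* (adjusted p = 0.332), *Hoxc10* (adjusted p = 0.329), *Hoxd9* (adjusted p = 0.148) or *Hoxd10* (adjusted p = 0.261).

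**Figure D4:**
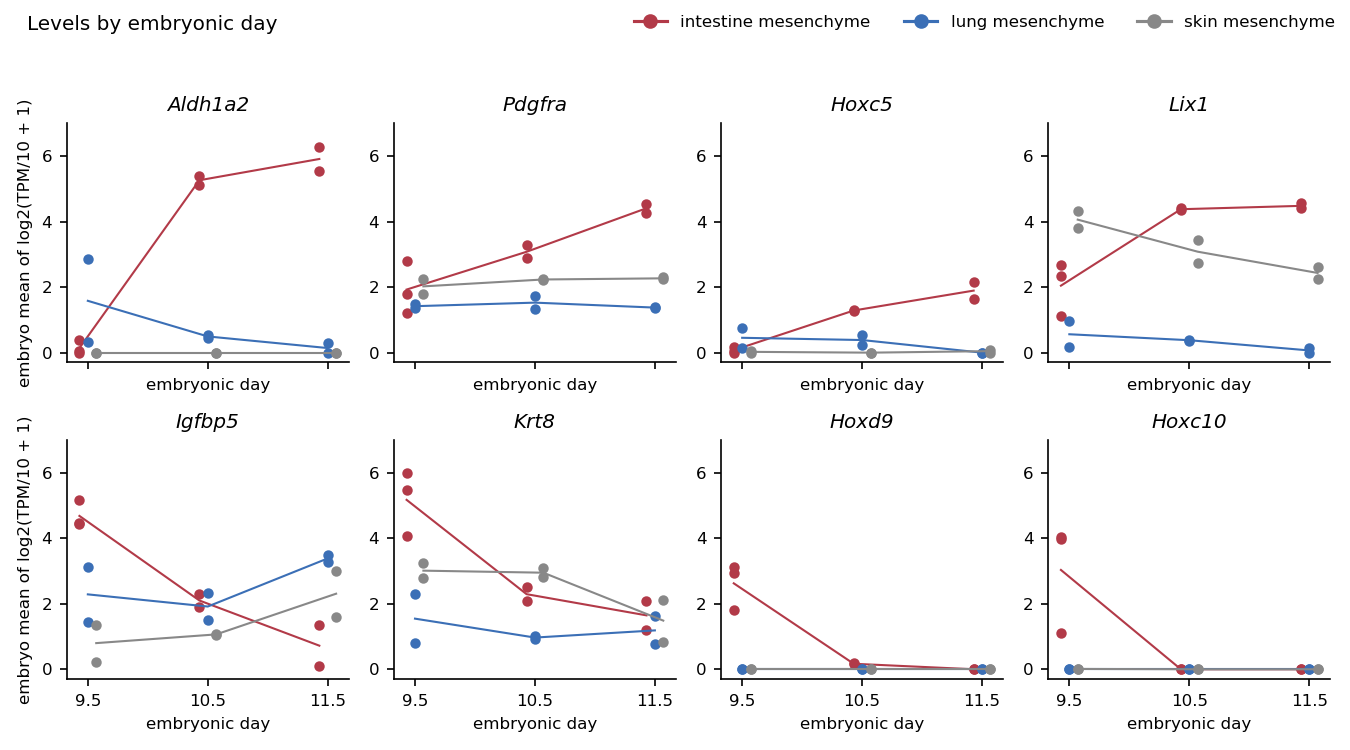
Mean level of 8 genes, as log2(TPM/10 + 1), by embryonic day in each embryo (points) for intestinal (red), lung (blue) and skin (grey) mesenchyme, with lines through the day means. *Aldh1a2*, *Pdgfra*, *Hoxc5* and *Lix1* go up in the intestine, *Igfbp5*, *Krt8*, *Hoxd9* and *Hoxc10* go down, and *Igfbp5* of the intestine is below lung and skin by E11.5.

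The slopes were set against those of lung and skin, and 0.412% of 13584 genes differed, 25 upward and 31 downward in the intestine. *Aldh1a2* (3.38 ± 0.43 per day, adjusted p = 0.0006), *Lix1*, a gene of early smooth muscle precursors (1.81 ± 0.30, adjusted p = 0.0048), and *Hoxc5* (1.04 ± 0.14, adjusted p = 0.0006) went up against the other organs. *Igfbp5* went down (-2.67 ± 0.36, adjusted p = 0.0006), as did *Hoxa9* and *Hoxd9*, which no other organ expressed. The collagen genes *Col1a1* (-1.95 ± 0.37, adjusted p = 0.013) and *Col1a2* (-1.80 ± 0.33, adjusted p = 0.011) and the matrix glycoprotein *Sparc* (-1.56 ± 0.27, adjusted p = 0.0063) had lower slopes than in lung and skin, where *Col1a2* reached 7.02 and 6.84. The call of *Col1a1* was lost without either E11.5 embryo (-1.93) and that of *Col1a2* without E9.5 embryo 2, E9.5 embryo 3 or E11.5 embryo 2 (-1.77 to -1.40). In the intestine itself the slopes of *Col1a1* (-0.44 ± 0.29), *Col1a2* (-0.31 ± 0.26) and *Sparc* (-0.64 ± 0.21) were not called. Of the 9 differences in slope named here edgeR called 3, missing *Aldh1a2* (adjusted p = 1), *Hoxc5* (adjusted p = 0.338), *Lix1* (adjusted p = 0.077), *Igfbp5* (adjusted p = 0.068), *Hoxa9* and *Hoxd9* (adjusted p = 1 for both), and DESeq2 called 7, missing *Aldh1a2* (adjusted p = 0.058) and *Hoxd9* (adjusted p = 0.207).

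Technical measures also moved with the day. The immediate early genes, which respond to dissociation among other stimuli, summed to 918, 4751 and 1461 TPM in E9.5 embryos 1, 2 and 3, to 569 and 624 TPM at E10.5 and to 260 and 132 TPM at E11.5. None of the 11 was called in the slope by limma (6 at an unadjusted p under 0.05, 0 called by edgeR and 2 by DESeq2), *Fos* at 3.14, 5.90, 4.68, 1.85, 2.07, 0.03 and 0.32 being an example (-2.22 ± 0.77 per day, adjusted p = 0.2), and DESeq2 on summed UMIs called it (adjusted p = 0.0019). E9.5 embryos 1 and 2 were labelled HiSeq 2500 and the others HiSeq 4000. With the latter alone 40 slopes were called, and *Aldh1a2*, *Pdgfra*, *Angptl1*, *Hoxc5* and *Igfbp5* were among them, whereas *Krt8*, *Krt18*, *Lix1*, *Synpo2*, *Lin28a*, *Col18a1*, *Tcf21* and *Hlx* were not. Of the 9 differences in slope named above, those of *Aldh1a2*, *Igfbp5*, *Hoxa9* and *Hoxd9* were called there and those of *Hoxc5* (0.93, adjusted p = 0.0531), *Lix1*, *Col1a1*, *Col1a2* and *Sparc* (-1.07, adjusted p = 0.118) were not. The part of immediate early genes, depth and library in the slopes was not tested.

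Mesothelial cells were looked for by 9 of 10 core markers, *Muc16* not being analysed here (*Wt1*, *Bnc1*, *Upk3b*, *Upk1b*, *Msln*, *Lrrn4*, *Gpm6a*, *Nkain4* and *Krt19*). At least 3 of them were expressed in 3 of 74 intestinal cells (4.05%, exact 95% interval 0.844 to 11.4, for counting error only), in 41 of 76 cells of the liver (53.9%), in 2 of 125 of the lung (1.6%) and in 0 of 77 of the skin (which allows a share of up to 3.9%). The 3 intestinal cells came from E9.5, 1 of 6 in embryo 1 and 2 of 11 in embryo 2, and none of the 48 cells of the later days qualified (up to 6.25%). A pair of markers sufficed in 10 cells, 7 of them in E9.5 embryo 2, the deepest embryo. The level that counts as expressed takes more UMIs in a deeper cell. At 100000 UMIs per cell 1 UMI reaches it, and 6 of 63 cells then had at least 3.

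The 3 cells were picked by the core markers, so that their levels of these markers are a description and no test of a mesothelial identity. In E9.5 embryo 2 *Krt19* was expressed in 11 of 11 cells. Both counted cells of this embryo were at 0 for *Upk1b*, *Gpm6a* and *Nkain4*. The first expressed the Wilms tumour factor *Wt1* (3.31), the uroplakin *Upk3b* (3.97), *Lrrn4* (1.78) and *Krt19* (4.23), and the second *Wt1* (3.53), *Bnc1* (3.40), *Upk3b* (3.33), *Lrrn4* (4.55) and *Krt19* (3.78), with the surface sialomucin *Podxl* at 5.97. The cell of embryo 1 expressed *Upk3b* (3.38), *Gpm6a* (1.12) and *Krt19* (2.84) without *Wt1*. All 3 kept the intestinal identity genes *Hand1* (4.77 to 6.46), *Nkx2-3* (3.30 to 5.55) and *Hoxc9* (3.52 to 5.45), together with *Col3a1*. None of them expressed *Aldh1a2*, which is also a mesothelial gene. It was nearly absent from the intestinal mesenchyme of E9.5, the day of all 3 cells, so that its absence is no test of their identity.

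The single markers had different reach. *Wt1* was in 3 intestinal cells, all of E9.5, against 56 of 76 in the liver, and in 3 of 249 blood cells. *Krt19* was in 23 intestinal cells, *Bnc1* in 7, *Nkain4* in 7, *Upk3b* in 6, *Gpm6a* in 6 and *Lrrn4* in 3, while *Upk1b* and *Msln* were in none. *Nkain4* did not mark mesothelium in the lung, where it was in 112 of 125 cells (2.75 to 4.37 per embryo against 0.00 to 1.36 in the intestine, lower by 3.25 ± 0.22, adjusted p = 1.7e-15). *Krt19* is also an epithelial keratin, found in 107 of 110 intestinal epithelial cells. Without cells of at least 3 markers in any organ, 51 of the 52 genes named against the mean of the other organs stayed on their side of the threshold, the exception being *Twist2* (0.96, adjusted p = 0.026). Lost as well were *Wt1* (-1.05, adjusted p = 0.124) and *Myl7* (-4.64, adjusted p = 0.0601) against liver and the slopes of *Tcf21* (1.26, adjusted p = 0.053) and *Hoxa10* (-1.36, adjusted p = 0.0616).

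**Figure D5:**
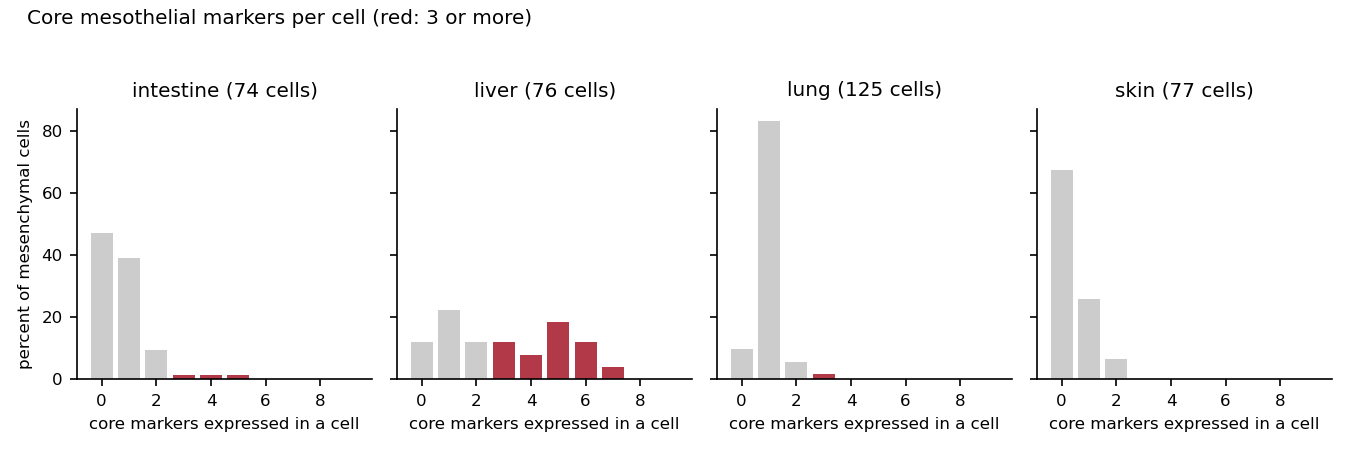
Percent of mesenchymal cells (vertical axis) by the number of core mesothelial markers expressed in the cell (horizontal axis, 0 to 9 possible) in intestine, liver, lung and skin, with 3 or more in red. In the liver 41 of 76 cells are at 3 or more, and in the intestine 3 of 74, while most lung cells are at 1 marker.

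Epithelial transcripts were present at low levels. *Epcam*, the epithelial adhesion molecule, was at 0.72, 0.93 and 1.15 at E9.5, at 1.69 and 1.65 at E10.5 and at 1.85 and 1.60 at E11.5, against 6.41 in intestinal epithelium. It was expressed in 44 of 74 mesenchymal cells (59.5%, 6 of 26 at E9.5 and 38 of 48 later), in 24% of lung, 19.5% of skin and 3.95% of liver mesenchymal cells and in 1.2% of 249 blood cells. The median depth was 252775 UMIs in the intestinal mesenchyme and 438183 in the blood cells. *Epcam* was not called against the mean of the other organs (0.87 ± 0.29, adjusted p = 0.079), nor was the tight junction gene *Cldn6* (1.17 to 2.02; 0.93 ± 0.44, adjusted p = 0.3). *Epcam* was called higher with log2(TPM + 1) (2.03, adjusted p = 0.0036), by edgeR (1.88, adjusted p = 0.00069), by DESeq2 (1.86, adjusted p = 0.00035) and with HiSeq 4000 embryos alone (1.05, adjusted p = 0.018), and *Cldn6* by edgeR (1.69, adjusted p = 0.041). Of the 19 epithelial genes *Spint2*, a protease inhibitor, was higher (1.19 ± 0.24, adjusted p = 0.0011, 7 of 7 embryos), with 5.96 in the epithelium. The summed list was 1367, 1447 and 763 TPM at E9.5 and 168 to 324 TPM later, the reverse of *Epcam*. Without the cells that expressed *Epcam*, in any organ, both E11.5 embryos dropped out of the intestinal group, with 1 and 0 cells left. Then 48 of the 52 genes named against the mean of the other organs kept their side of the threshold, *Nkx2-3*, *Hand1*, *Mab21l2*, *Saa1* and *Col1a2* among them, and *Pdgfra* (0.59, adjusted p = 0.162), *Hoxb7* (0.97), *Hhip* (adjusted p = 0.166) and *Id3* (-1.51, adjusted p = 0.1) did not. Of the 23 slopes 17 kept theirs, including *Aldh1a2*, *Krt8* and *Hoxd9*, and also *Fos*, *Col1a1*, *Col1a2* and *Sparc*, which were not called to begin with. The called slopes of *Pdgfra* (1.20, adjusted p = 0.267), *Hoxc5* (0.20, adjusted p = 0.668), *Igfbp5* (-1.99, adjusted p = 0.125), *Col18a1*, *Tcf21* and *Hlx* were lost. Of the 9 differences in slope 4 kept theirs, and *Hoxc5*, *Igfbp5* (-2.63, adjusted p = 0.0559), *Col1a1*, *Col1a2* and *Sparc* lost it. The part of epithelial RNA in the remaining results was not tested.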

How the data were processed

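Single cells picked from trypsin-treated organs of 7 embryos were sequenced by the authors with a modified STRT protocol, which tags the 3′ end of each captured molecule with a UMI. Reads were mapped to mm10 with TopHat2 2.0.12, uniquely mapped reads were counted with HTSeq, and UMIs were collapsed; the HTSeq version and the annotation are not given in the sources used here. The submitters' processing notes also name CASAVA 1.8. The deposited values, called TPM, are CPM: the authors divided the UMIs of a gene by all UMIs of the cell. Multiplied back, 100.0% of nonzero values gave whole UMIs to within 0.05, which served for depth, thinning and the count tests.

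Cells were grouped by the organ and embryo in their names and by the study's annotation (mesenchymal or epithelial), with no doublet caller. The log2(TPM/10 + 1) values were averaged per embryo, organ and cell type with at least 3 cells, so that the embryo was the replicate and TPM/10 set the pseudocount. A gene entered a test when 3 or more of the cells in it reached 1. Linear models were fitted in limma 3.58.1 under R 4.3.3, moderated by eBayes with a trend, and p-values were adjusted by Benjamini-Hochberg over every gene tested. The fit across organs held mesenchymal and epithelial means of all 4 organs, which shared 1 estimate of the spread. Liver was compared at E9.5 among mesenchymal means of that day. Slopes were fitted per organ on embryonic day in intestine, lung and skin. All p-values are two-sided. Alternatives used edgeR 4.0.16 (quasi-likelihood, TMM) and DESeq2 1.42.0 on UMIs summed per embryo and organ, other pseudocounts and filters, cells thinned to 100000 UMIs, subsets of cells and embryos, and the embryo as a block. On simulated cells with 200 changed genes, limma recovered 65% in the comparison with the mean of the other organs, 63% with lung, 59.5% with skin, 54.5% with liver, 33.5% of slopes and 5.5% of differences in slope. The planted sizes lay above the thresholds of the calls. The spread between embryos was set by hand and drawn separately for each organ and cell type. These shares are therefore not the sensitivity at the thresholds or under the spread of the real embryos.

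Organs of 1 embryo come from the same animal, so that the embryo pairs the samples. The deviations of intestine from its mean correlated with those of another organ of the same embryo at -0.05 to 0.31 over 15 pairs. Genes were named as the 4 marker genes of the cell type, members of 24 lists (all *Hox* and collagen genes included), and up to 10 called genes with the largest rise and fall per comparison. The members and lists were chosen with earlier results of these data known. Positions are from GENCODE M21 (GRCm38), promoters from RefSeq (GRCm38.p6). Intervals and limits cover counting error only.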

Additional observations from a re-analysis of the deposited data

Results flagged for a closer look

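Of 82 genes named in the text, 5 had 1 embryo that stood apart from the other 6 by Dixon's test at the 95% level, and chance alone gives about 1 in 20. E9.5 embryo 1 stood apart in *Lef1*, at 2.42 and above the other embryos, and in *Saa2*, at 0.87 and below them. E9.5 embryo 2 stood apart in *Gata4*, at 0.28 where the other 6 were at 0.10 or below. E9.5 embryo 3 stood apart in *Anxa2*, at 0.46, and in *Prrx1*, at 0.22, both above the rest and both low beside the other organs.

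The slope on embryonic day differed between intestine and the mean of lung and skin, by limma's test of the difference, in 9 genes named above. *Aldh1a2* (3.38 per day), *Lix1* (1.81) and *Hoxc5* (1.04) had the higher slope in the intestine. *Igfbp5* (-2.67), *Col1a1* (-1.95), *Col1a2* (-1.80), *Sparc* (-1.56), *Hoxd9* (-1.38) and *Hoxa9* (-1.28) had the lower one.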

How the results depend on the processing

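The counts of called genes moved with the scale, the test and the embryos kept. Against the mean of the other organs 235 genes were called, and 500 with log2(TPM + 1) (192 higher, 308 lower), 622 with edgeR (413 and 209), 530 with DESeq2 (264 and 266), 122 with E9.5 embryos alone (79 and 43) and 185 to 240 without 1 embryo. Against lung, where 202 were called, these counts were 316 with log2(TPM + 1) (160 and 156), 389 with edgeR (149 and 240), 386 with DESeq2 (175 and 211) and 157 to 215 without 1 embryo. Against skin, where 453 were called, they were 890 (289 and 601), 803 (362 and 441), 854 (429 and 425) and 374 to 481. Against liver at E9.5, where 83 were called, they were 146 with log2(TPM + 1) (70 and 76), 34 with no filter (16 and 18), 104 with edgeR (36 and 68), 539 with DESeq2 (203 and 336), 183 with the replicate block (87 and 96) and 0 to 60 without 1 embryo. Slopes were called for 87 genes, and for 145 with log2(TPM + 1) (65 and 80), 57 with no filter (24 and 33), 40 with edgeR (14 and 26), 265 with DESeq2 (103 and 162), 40 with HiSeq 4000 embryos alone (22 and 18) and 55 to 123 without 1 embryo. Thinned to 100000 UMIs they split into 36 rising and 34 falling, and without cells expressing *Epcam* into 81 and 49. Differences in slope were called for 56 genes, and for 31 with no filter (17 and 14), 17 with edgeR (3 and 14), 199 with DESeq2 (49 and 150), 36 after thinning (16 and 20), 16 with HiSeq 4000 embryos alone (9 and 7) and 18 to 42 without 1 embryo, and without cells expressing *Epcam* they split into 49 upward and 21 downward. With 2 or more core mesothelial markers 10 cells counted. The cause of these shifts was not tested.

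For 122 pairs of a named gene and a comparison, 2065 of 2281 alternative values kept their side of the threshold and their direction, 204 lost the call, 8 gained it and 4 changed sign. The changes of sign were *Aldh1a2* against the mean of the other organs with E9.5 embryos alone (-0.43), and 3 values that were not called to begin with: *Col1a1* against lung (-1.27 to 0.0080 without 1 embryo, positive without E11.5 embryo 1), its slope with HiSeq 4000 embryos alone (0.13) and the slope of *Col1a2* (-0.59 to 0.038 without 1 embryo, positive without E9.5 embryo 2). Of the 52 genes named in the first comparison, 20 lost the call in the same direction with E9.5 embryos alone, beside *Aldh1a2*, and 6 with HiSeq 4000 embryos alone. The replicate block ended or added no call of a named gene, and the liver comparison aside it left the counts within 1.5 times. No paired analysis was possible for the intestinal slopes themselves because each embryo has 1 day. For the differences in slope the replicate block called 41 genes (18 upward and 23 downward). Groups of 2 or 3 embryos per day and 6 to 19 cells per embryo limit what the slopes and the liver comparison can show, and depth limits statements on sparse genes.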
